A study of Mus musculus with 8 samples.

Results

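The cyclin D and Cdk4/6 system of mouse embryonic neural tissue is described here through 10 genes, chosen by name as G1 control genes of the progenitor cell cycle. The choice applied no threshold to their values, but it was made with earlier results of these libraries known. They are the D-type cyclins Ccnd1, Ccnd2 and Ccnd3, the kinases Cdk4 and Cdk6, the Cdk inhibitors Cdkn1b, Cdkn1c and Cdkn2c, the kinase substrate Rb1 and the phosphatase Cdc25a. All 10 were found among the 24420 gene symbols of the total RNA table. Ccnd1, Cdk4, Cdkn1c, Cdkn2c and Rb1 were also found among the 5804 symbols of the polysomal RNA table, so 5 members could be followed in both fractions. Ccnd2, Ccnd3, Cdk6, Cdkn1b and Cdc25a were not analysed in polysomal RNA.

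The libraries came from mouse embryos at E11.5, in mid-gestation, that were either Lin28a-/-;b-/- (double knockout, dKO) or wildtype (WT), with no other allele or agent named. No Cre driver or conditional allele is given, and neither is the deleted stretch of each gene. RNA was taken either whole (total RNA) or from polysomes, the fraction in which several ribosomes sit on a transcript. Each of the 4 groups, dKO polysomal, WT polysomal, dKO total and WT total RNA, held 2 libraries. The tissue is given as brain in one label field and as neural tube in a protocol, and no label tells whether replicates were separate embryos, litters or pools. The p-values below therefore measure the spread between these libraries, which may be technical.

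In the G1 phase of the cell cycle, D-type cyclins bind Cdk4 or Cdk6, and the active kinases phosphorylate the retinoblastoma protein Rb1, which then releases E2F transcription factors that switch on genes for DNA replication. INK4 inhibitors such as Cdkn2c (p18) bind Cdk4 and Cdk6 directly, while the Cip/Kip inhibitors Cdkn1b (p27) and Cdkn1c (p57) bind cyclin-Cdk complexes. In the embryonic neural tube, D cyclins are known from cycling progenitors and the Cip/Kip inhibitors from cells that leave the cycle. Lin28a and Lin28b bind RNA and keep precursors of let-7 microRNAs from maturing, and several D cyclins, Cdk6 and Cdc25a are known from other systems as let-7 targets.

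Total RNA held 15768767 and 15612883 counts in the dKO libraries, against 15650360 and 15060560 in the WT libraries. The listed genes of the polysomal table summed to 3740980 and 5164982 counts in dKO and to 14874143 and 15414712 counts in WT, which is a sum over listed genes and not the depth. As a check of the labels, Lin28a had 103 and 120 counts in dKO against 1151 and 1091 in WT total RNA, and Lin28b had 755 and 855 against 2014 and 1852. The 16 neural progenitor markers summed to 4553 and 4600 CPM, the usual scaling of counts to library size, in dKO and to 4938 and 4976 CPM in WT total RNA, and the 18 neuron markers to 5044 and 5055 CPM in dKO and 5134 and 5129 CPM in WT. Markers of other tissues were present as well, with sums over the erythroid list of 2698 and 2693 CPM in dKO and 4410 and 4476 CPM in WT. The highest genes of that list were Hbb-y, at a mean of 1454 CPM in dKO and 2274 CPM in WT, and Hba-x, at 804.4 and 1283 CPM. Hbb-bh1 followed at 346.1 CPM in dKO and 740.9 CPM in WT. Hba-a1, Hba-a2 and Hbb-bt, which the naming rule given below does not cover, were listed at 0 in all 4 total RNA libraries. The dKO polysomal replicates stood apart from each other, with a chi-square per degree of freedom between their counts of 24.8, against 2.89 for WT polysomal, 2.88 for dKO total and 3.19 for WT total RNA.

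The let-7 family reads its targets through the seed, bases 2 to 8 of the mature microRNA, which 11 mouse microRNA names of the RefSeq table (GRCm38.p6) share, namely let-7 members, miR-98 and miR-1961. The family is shown first because Lin28 acts on it, with the seed in capitals.
mmu-let-7a-5p: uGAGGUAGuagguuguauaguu
mmu-let-7b-5p: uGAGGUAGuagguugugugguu
mmu-let-7g-5p: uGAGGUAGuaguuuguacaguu

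The longest annotated 3′ UTR of each member (GENCODE M21, GRCm38) was searched on the transcribed strand for CTACCTC, which pairs with the whole seed, and for TACCTCA, which pairs with bases 2 to 7 and has an A opposite base 1. Where both overlap they form CTACCTCA, and this longest match occurred in none of the 10 members. A match of either shorter kind lay in 6 of the 10 members, namely Ccnd1, Ccnd2, Cdk4, Cdk6, Rb1 and Cdc25a. Among all 13272 genes tested in total RNA with an annotated 3′ UTR, 17.473% held a match and 3.805% held the longest one, with a median UTR length of 1256 bases against 1692.5 in the members. Each site is given as 30 bases of the transcribed strand with the match in capitals.
Ccnd1 (chr7:144930598-144930627, minus strand): aaaaaacaggttcctgttcacaaTACCTCA
Ccnd2, site 1 (chr6:127128300-127128329, minus strand): cattcttcaaagagagtattcttTACCTCA
Ccnd2, site 2 (chr6:127128222-127128251, minus strand): tgtacttcttttcgttttcctaaTACCTCA
Ccnd2, site 3 (chr6:127125586-127125615, minus strand): ttgttcattatccttctgccatgTACCTCA
Cdk4 (chr10:127067651-127067680, plus strand): ttaccctcctagggcccgaggcCTACCTCc
Cdk6 (chr5:3521616-3521645, plus strand): gcaatacatttaaggagtgagtgTACCTCA
Rb1 (chr14:73196559-73196588, minus strand): tcttactactgacacagatttcaTACCTCA
Cdc25a (chr9:109892725-109892754, plus strand): tagagttttatcatcctaggagCTACCTCt

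Ccnd2 held the most matches, with 3 in a UTR of 5173 bases, and Cdk6 held a single match in 10217 bases. Cdk4 had the match in the shortest of these UTRs, 899 bases long. No match was found in the UTRs of Ccnd3, Cdkn1b, Cdkn1c and Cdkn2c, so all 3 inhibitor genes were without these letters. A match is a description of the sequence and not a measured binding site.

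The levels of the members spanned a wide range within total RNA. On the scale of CPM per kilobase of merged exons, Cdk4 was highest, at 343.2 ± 4.82 in dKO and 356.2 ± 3.79 in WT (mean ± SD, n = 2 each, as for all levels that follow). It was followed by Ccnd2 at 184 ± 0.354 in dKO and 192.2 ± 2.25 in WT, by Cdkn1c at 157.6 ± 7.31 in dKO and 169.8 ± 2.81 in WT, and by Ccnd1 at 132.7 ± 2.21 in dKO and 155.6 ± 1.87 in WT. These 4 genes stood well above the other 6. Cdkn1b had 25.65 ± 1.38 CPM per kilobase in dKO and 23.03 ± 0.944 in WT, and Rb1 had 23.02 ± 0.368 in dKO and 21.9 ± 0.981 in WT. The libraries of these neighbours overlapped in WT, so their order there did not exceed the spread. Ccnd3 followed with 10.82 ± 0.183 in dKO and 14.81 ± 0.0134 in WT.

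Cdc25a and Cdkn2c lay close to each other. Cdc25a had 8.221 ± 0.379 CPM per kilobase in dKO and 10.57 ± 0.257 in WT, while Cdkn2c had 8.895 ± 0.646 in dKO and 6.448 ± 0.908 in WT, and their libraries overlapped in dKO but not in WT. Cdk6 was the lowest member, with 1.502 ± 0.0353 in dKO and 1.199 ± 0.158 in WT. The order depends on which exons are counted as the gene. With the longest annotated transcript in place of the merged exons, 6 of the 10 members kept their rank in WT, Ccnd1 at 195.9 stood above Cdkn1c at 182.2, and Ccnd3 at 33.69 stood above Rb1 at 28.29 and Cdkn1b at 23.03. On that scale Cdc25a was above Cdkn2c in both genotypes, at 17.57 against 9.669 in dKO and 22.58 against 7.009 in WT.

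**Figure D1:**
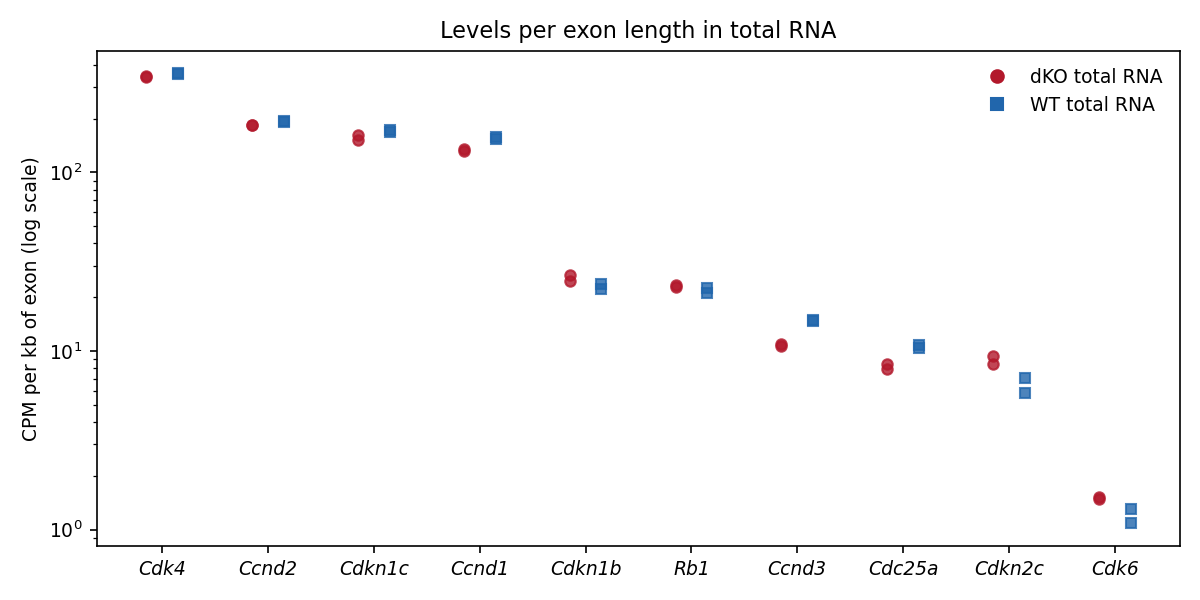
Level of each member in total RNA as CPM per kilobase of merged exons, on a log scale, with a point for each of the 2 dKO and the 2 WT libraries and genes ordered by their WT mean. Cdk4, Ccnd2, Cdkn1c and Ccnd1 lie between 132.7 and 356.2 in group means, and Cdk6 lies lowest at 1.502 in dKO and 1.199 in WT.

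Per length, the D cyclin pool was mostly Ccnd2 and Ccnd1. Ccnd2 made up 56.38% and 55.96% of the summed D cyclin level in dKO libraries and 53.4% and 52.6% in WT libraries. Ccnd1 made up 40.26% and 40.8% in dKO and 42.52% and 43.31% in WT, and Ccnd3 made up 3.361% and 3.248% in dKO and 4.08% and 4.092% in WT. The summed level was 325.8 and 329.2 CPM per kilobase in dKO and 362.8 and 362.3 in WT, so the sum was lower and the Ccnd2 share larger in both dKO libraries. Of the kinases, Cdk6 gave 0.4387% and 0.4329% of the Cdk4 and Cdk6 sum in dKO and 0.3693% and 0.302% in WT. Among the inhibitors, Cdkn1c made up 81.76% and 82.28% in dKO and 85.63% and 84.81% in WT, Cdkn1b 13.23% and 13.45% in dKO and 11.41% and 11.69% in WT, and Cdkn2c 5.014% and 4.264% in dKO and 2.962% and 3.5% in WT. The summed inhibitor level was 186.5 and 197.9 CPM per kilobase in dKO and 196 and 202.6 in WT, and these values overlapped.

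In total RNA, dKO libraries had lower Ccnd1, Ccnd3 and Cdc25a, and higher Cdkn2c and Cdkn1b, though both rises were lost in some of the alternative analyses. By edgeR's quasi-likelihood test with Benjamini-Hochberg adjusted p under 0.05, 8 of the 10 members differed, 2 higher and 6 lower in dKO. Over all 14594 genes tested, 30.8% were called, 14.8% higher and 16.1% lower in dKO. The members changed by about as much as other genes, with a median absolute log2 fold change of 0.19 in the members and 0.20 over all genes, and a median signed change of -0.06 in the members and 0.003 over all genes. These are bulk samples, in which fewer cells of a type and less RNA per cell cannot be told apart. Since members and lists were chosen with results known, their directions are described and not put forward as independent evidence.

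Ccnd1, the cyclin that couples growth signals to Cdk4 and Cdk6, had 617.67 and 632.41 CPM in dKO libraries and 726.41 and 738.83 CPM in WT libraries. Every dKO value lay below both WT values, and Ccnd1 fell by 0.23 ± 0.03 on the log2 scale (± SE, edgeR adjusted p = 2.12e-16). Ccnd2, the D cyclin with the most counts in this tissue, had 1728.4 and 1733.1 CPM in dKO and 1822.9 and 1793 CPM in WT. The groups did not overlap but lay close, and Ccnd2 fell by 0.06 ± 0.02 (edgeR adjusted p = 0.004005). Without WT replicate 1 the change in Ccnd2 had an edgeR adjusted p of 0.06115.

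Ccnd3 had 96.087 and 93.813 CPM in dKO and 129.9 and 130.07 CPM in WT. It fell by 0.45 ± 0.06 (edgeR adjusted p = 4.13e-13), the furthest of the D cyclins, and 17.58% of all genes had a larger absolute change. Ccnd3 has no let-7 seed match in its UTR, and Ccnd2, with the 3 matches shown above, fell least. Whether the matches bear on these changes was not tested. The genome also holds a processed pseudogene of Ccnd3, so some of its reads could be shared with that copy. Of the exon bases of Ccnd1, 23.36% lie opposite exons of LTO1, and the strand setting of the counting is not given, so reads of the 2 genes may not have been separated there.

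Cdk4, the main kinase partner of the D cyclins by level, had 1126.3 and 1104.1 CPM in dKO and 1148.5 and 1165.9 CPM in WT. The groups did not overlap, but the gap was small, and Cdk4 fell by 0.05 ± 0.02 with an edgeR adjusted p of 0.04685, just under the threshold. The call was kept in 4 of 15 alternative analyses, and without dKO replicate 1, dKO replicate 2 or WT replicate 2 the edgeR adjusted p was 0.05461, 0.3352 and 0.2307. Cdk6, the second kinase that D cyclins activate, had 336 and 321 counts in dKO and 288 and 230 counts in WT, or 21.367 and 20.668 CPM in dKO and 18.33 and 15.209 CPM in WT. Both dKO values were above both WT values, at 0.32 ± 0.14 on the log2 scale, with an edgeR adjusted p of 0.05848 and an unadjusted 95% interval of 0.05 to 0.60. Without WT replicate 1 the difference in Cdk6 was 0.46 (edgeR adjusted p = 0.03076). It also passed the threshold with upper-quartile scaling (0.04748) and with the filter on a mean of at least 5 CPM (0.04494), so its side of the threshold depends on such choices.

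Among the inhibitors, the INK4 gene Cdkn2c had the largest estimated change of all members, close in size to that of Ccnd3. It had 395 and 352 counts in dKO and 245 and 288 counts in WT, or 25.119 and 22.664 CPM in dKO and 15.594 and 19.044 CPM in WT. The libraries did not overlap, and Cdkn2c rose by 0.47 ± 0.13 (edgeR adjusted p = 0.002539). With these low counts the call rests on individual libraries, and without dKO replicate 1 or WT replicate 1 the edgeR adjusted p was 0.08289 and 0.1266. In the fit of all 8 libraries it was 0.06468.

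Cdkn1b, which encodes p27, had 112.3 and 121.18 CPM in dKO and 101.77 and 107.85 CPM in WT. It rose by 0.16 ± 0.06 (edgeR adjusted p = 0.03048), and the call was lost without dKO replicate 2 (0.386) or WT replicate 1 (0.2821), with DESeq2 (0.1255) and with the GC content offset (0.1323). Cdkn1c, the imprinted gene of p57, went the other way, with 310.9 and 331.98 CPM in dKO and 342.23 and 350.34 CPM in WT. It fell by 0.11 ± 0.04 on the log2 scale (edgeR adjusted p = 0.009783), a call lost without dKO replicate 1 (0.3499) or WT replicate 2 (0.09591), with DESeq2 (0.06499) and in the fit of all 8 libraries (0.1665). The 3 inhibitor genes thus did not share a direction. Of the exon bases of Cdkn1c, 30.65% lie opposite the antisense gene Gm44732, and of those of Cdk4, 19.73% lie opposite Tspan31.

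Rb1, the pocket protein that the D cyclin kinases phosphorylate, had 136.91 and 140.04 CPM in dKO and 127.55 and 135.89 CPM in WT. The groups were close, and the difference of 0.07 ± 0.05 had an edgeR adjusted p of 0.3233, with an unadjusted 95% interval of -0.03 to 0.18. Cdc25a, the phosphatase that removes inhibitory phosphates from G1 and S phase Cdks, had 68.107 and 63.808 CPM in dKO and 83.314 and 86.228 CPM in WT. Both dKO libraries lay clearly below both WT libraries, and Cdc25a fell by 0.36 ± 0.07 (edgeR adjusted p = 3.4e-06). Ccnd1, Ccnd3 and Cdc25a were called in every alternative in which they could be tested, with log2 changes between -0.25 and -0.21, between -0.47 and -0.43 and between -0.41 and -0.32.

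**Figure D2:**
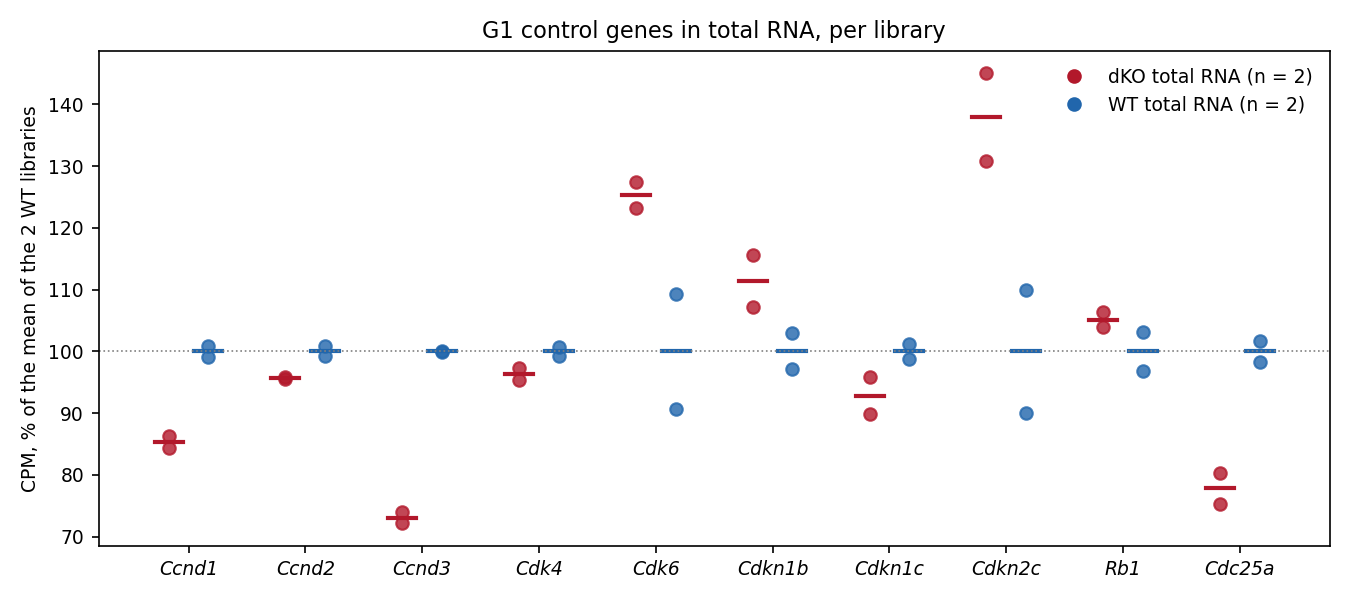
CPM of each member in total RNA as a percentage of the mean of the 2 WT libraries, with a point per library and a bar for the group mean (n = 2 dKO and 2 WT). Ccnd3 lies lowest in dKO at 73.92% and 72.17%, Cdkn2c lies highest at 145.04% and 130.86%, and the 2 WT libraries differ most for Cdk6 and Cdkn2c.

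The balance between members within a library needs no scaling across libraries. Cdkn1b counts were 18.18% and 19.16% of Ccnd1 counts in dKO total RNA and 14.01% and 14.6% in WT, and Cdkn2c counts were 4.067% and 3.584% of Ccnd1 counts in dKO and 2.147% and 2.578% in WT. Ccnd2 counts were 279.8% and 274% of Ccnd1 counts in dKO and 250.9% and 242.7% in WT. Cdk6 counts were 1.897% and 1.872% of Cdk4 counts in dKO and 1.596% and 1.304% in WT. In each of these ratios both dKO libraries lay above both WT libraries, but Ccnd1, the divisor in most of them, had itself fallen. Other pairs went differently. Ccnd3 counts were 15.56% and 14.83% of Ccnd1 counts in dKO and 17.88% and 17.6% in WT, so lower in dKO. Cdkn1c counts were 27.6% and 30.07% of Cdk4 counts in dKO and 29.8% and 30.05% in WT, and these overlapped.

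Markers of other cell types and of proliferation moved in the same libraries. The counts that follow stand beside 14.8% higher and 16.1% lower in dKO over all genes tested. Of 20 proliferation markers, 1 rose and 15 fell in dKO total RNA, and their sum was 2001 and 2042 CPM in dKO against 2399 and 2384 CPM in WT. The replication gene Rrm2 had 182.51 and 192.52 CPM in dKO and 282.91 and 295.45 CPM in WT, whereas Mki67 had 284.7 and 269.98 CPM in dKO and 237.21 and 242.95 CPM in WT. Of 16 neural progenitor markers 4 rose and 6 fell, and of 18 neuron markers 8 rose and 4 fell. Of the 8 tested genes of 13 erythroid markers, none rose and 7 fell. Of the 14 tested genes of 16 mesenchyme and somite markers, none rose and 5 fell, with sums of 483.7 and 490.6 CPM in dKO and 583.4 and 551.9 CPM in WT. Of 10 endothelial markers none passed the test in either direction, and their sums were 203.9 and 211.4 CPM in dKO and 202.4 and 202.7 CPM in WT. Of 10 neural crest markers none rose and 2 fell, with sums of 128.9 and 133.3 CPM in dKO and 147.7 and 153.3 CPM in WT. Of 10 macrophage markers 1 rose and 1 fell, with sums of 57.42 and 43.98 CPM in dKO and 49.52 and 53.3 CPM in WT. The part of these shifts in the lower Ccnd1, Ccnd3 and Cdc25a was not tested.

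Across all genes with an annotated 3′ UTR, those with at least 1 of the let-7 matches had a median log2 fold change of -0.02 in total RNA, and 15.7% rose and 18.67% fell. Genes with the longest match, CTACCTCA, had a median of -0.06, with 11.29% higher and 24.55% lower. Genes without a match had a median of -6e-04, with 14.79% higher and 16.66% lower. Among the members, 4 of the 6 with a match fell, namely Ccnd1, Ccnd2, Cdk4 and Cdc25a, while Cdk6 and Rb1 were not called. Of the 4 members without a match, Ccnd3 and Cdkn1c fell and Cdkn1b and Cdkn2c rose. The calls of Ccnd2, Cdk4, Cdkn1b, Cdkn1c and Cdkn2c were each lost in at least 1 alternative analysis, so these tallies are not firm. A part of let-7 in these changes was not tested.

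Around the members, the wider Rb, E2F and Cdk list of 42 genes had 41 tested. Over all genes tested in total RNA, 14.8% rose and 16.1% fell in dKO, with a median log2 fold change of 0.003. In the list 5 rose and 11 fell, with a median of -0.11. Among the rises was the Cip/Kip inhibitor Cdkn1a (p21), at 0.58 ± 0.13 on the log2 scale (edgeR adjusted p = 0.0001313), a call lost without dKO replicate 2 (0.1273). The E2F partner Tfdp1 rose by 0.31 ± 0.05 and the activator E2f1 by 0.26 ± 0.05 (edgeR adjusted p = 7.4e-10 and 1.69e-07). In the fit of all 8 libraries E2f1 lost its call (edgeR adjusted p = 0.05424). The INK4 gene Cdkn2d (p19) rose by 0.24 ± 0.09 and the phosphatase gene Cdc25b by 0.10 ± 0.04, and both calls were lost without dKO replicate 2, WT replicate 1 or WT replicate 2. Each of the 4 inhibitor genes that rose, Cdkn2c, Cdkn1b, Cdkn1a and Cdkn2d, lost its call without at least 1 library. The count of listed genes that rose was 2 without dKO replicate 2 and 3 without WT replicate 1 or WT replicate 2.

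Among the falls were the repressor E2f6, lower by a log2 change of -0.55 ± 0.06, E2f5 at -0.39 ± 0.07, the ubiquitin ligase subunit Skp2 at -0.35 ± 0.05 and the mitotic kinase Cdk1 at -0.34 ± 0.05 (edgeR adjusted p between 1.91e-21 and 2.14e-07). Skp2 is known for marking p27 for degradation. Dtl, which directs replication-coupled degradation, changed by -0.32 ± 0.07 (edgeR adjusted p = 5.3e-05), and without dKO replicate 1 its adjusted p was 0.1249. Mnat1, of the Cdk-activating kinase, changed by -0.30 ± 0.12 (edgeR adjusted p = 0.03641) and lost its call without dKO replicate 1, dKO replicate 2 or WT replicate 1. Cdk2, the partner of E cyclins, fell by 0.26 ± 0.06, and E2f7 fell by 0.27 ± 0.08 (edgeR adjusted p = 0.0003459 and 0.005969), the second call being lost without dKO replicate 1 or WT replicate 1.

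The E cyclins, which take over from the D cyclins late in G1, did not pass the test, with log2 changes of -0.21 ± 0.11 for Ccne1 and 0.15 ± 0.12 for Ccne2. The other pocket protein genes had changes of -0.05 ± 0.06 for Rbl1 and 0.23 ± 0.11 for Rbl2 (edgeR adjusted p = 0.5703 and 0.1083). For the remaining E2F genes the values were 0.17 ± 0.10 for E2f2, -0.04 ± 0.05 for E2f3, -0.15 ± 0.06 for E2f4 and -0.01 ± 0.08 for E2f8, none of them called. E2f4 had an edgeR adjusted p of 0.03557 without dKO replicate 1.

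In polysomal RNA, Cdkn1c and Cdkn2c stood higher and Rb1 lower in dKO relative to the other listed genes, with smaller rises in Ccnd1 and Cdk4. The differences in Rb1 and Cdk4 were lost with an offset for GC content, as given below. The table lists part of the genes, by a rule that is not given in the sources used here. Of its 5777 tested genes 99.7% were called by edgeR, 47.2% higher and 52.5% lower in dKO, so that the calls of the 5 listed members, 4 higher and 1 lower, say nothing beyond their being listed. Among the 5441 listed genes that averaged 100 counts or more, the log2 ratio of summed dKO to summed WT counts left an empty interval between -2.04 and -1.71, with 2927 genes below it and 2514 above it. Directions below are relative to this table, and an overall change in polysomal RNA cannot be read from it.

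The summed-count log2 ratio of dKO over WT, with no scaling, was -0.46 for Cdkn2c, -0.55 for Cdkn1c, -1.40 for Cdk4, -1.58 for Ccnd1 and -2.97 for Rb1. The first 4 lie above the empty interval, as do 46.2% of the genes, and Rb1 lies below it. Ccnd1 lies nearest to the interval. All 5 ratios are negative because the listed genes had fewer counts in the dKO libraries.

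**Figure D3:**
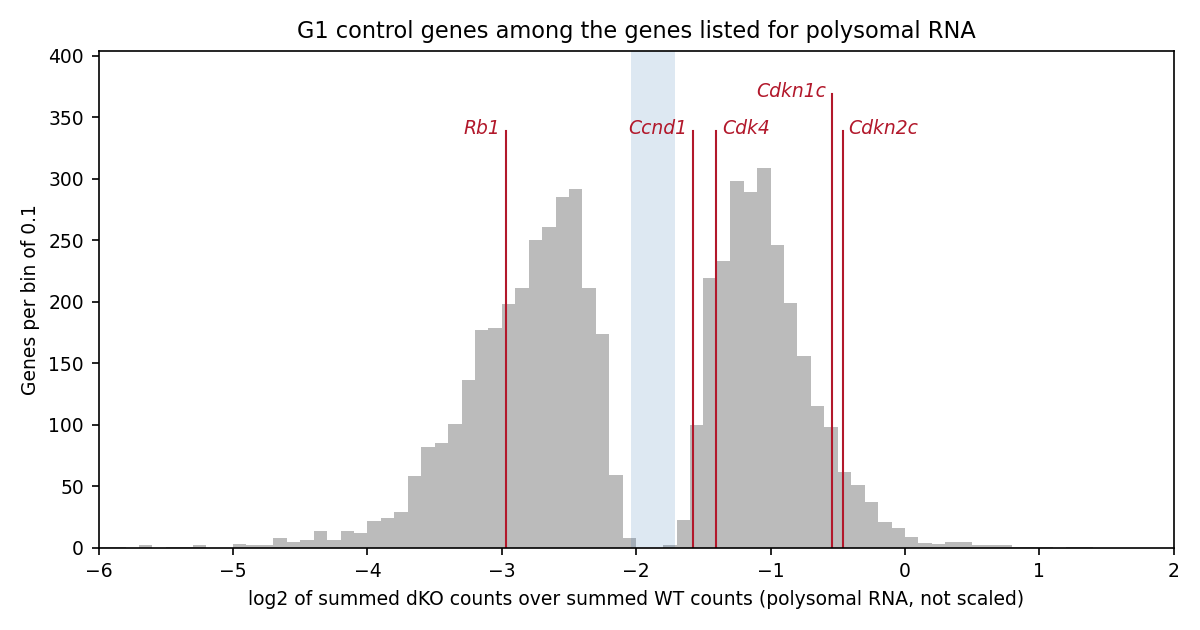
Histogram of the log2 ratio of summed dKO over summed WT counts in polysomal RNA, not scaled, over the 5441 genes that averaged 100 counts or more, with the empty interval shaded and the 5 listed members as lines. Rb1 at -2.97 lies left of the interval, and Ccnd1, Cdk4, Cdkn1c and Cdkn2c lie to its right.

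Ccnd1 had 4730 and 6562 polysomal counts in dKO and 16499 and 17239 in WT, which is 1391.1 and 1292 CPM of listed genes in dKO and 1048.3 and 1057.8 CPM in WT. On the scaled values the dKO libraries were both higher, and Ccnd1 rose by 0.35 ± 0.06 on the log2 scale (edgeR adjusted p = 0.001616). This direction was opposite to the one in total RNA. Cdk4 had 2549.2 and 2612.8 CPM in dKO and 1822.8 and 1799.6 CPM in WT, again with no overlap, and rose by 0.51 ± 0.04 (edgeR adjusted p = 0.0002049).

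Cdkn1c had 5642 and 7514 polysomal counts in dKO and 9246 and 9960 in WT, or 1659.3 and 1479.4 CPM in dKO and 587.45 and 611.13 CPM in WT. The values did not overlap, and Cdkn1c rose by 1.39 ± 0.07 (edgeR adjusted p = 8.63e-05), whereas it fell slightly in total RNA. Cdkn2c had 281 and 343 counts in dKO and 459 and 400 in WT, or 82.64 and 67.531 CPM in dKO and 29.163 and 24.543 CPM in WT. Both dKO values were above both WT values, and Cdkn2c rose by 1.48 ± 0.17 (edgeR adjusted p = 0.0004949), the same direction as in total RNA.

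Rb1 had 286 and 530 polysomal counts in dKO and 3220 and 3168 in WT, or 84.11 and 104.35 CPM in dKO and 204.58 and 194.38 CPM in WT. It was the only listed member that was lower in dKO, and it fell by 1.07 ± 0.12 (edgeR adjusted p = 0.0004595). The dKO replicates of Rb1 and of Cdkn2c lay further apart than those of the other 3 members. With any 1 of the 4 polysomal libraries left out, log2 changes lay between 0.29 and 0.37 for Ccnd1 and between 0.46 and 0.53 for Cdk4. They lay between 1.30 and 1.44 for Cdkn1c, between 1.33 and 1.61 for Cdkn2c and between -1.28 and -0.94 for Rb1.

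Transcript base composition moved with the polysomal differences. Across 5572 genes, the log2 fold change in polysomal RNA had a Spearman rho of 0.7639 with GC content, against -0.0873 across 14039 genes in total RNA, where genes share libraries and are not independent replicates. The members had a GC content of 59.39% in Cdkn1c, 58.033% in Cdkn2c, 53.337% in Cdk4, 50.936% in Ccnd1 and 41.216% in Rb1. Both inhibitors had the highest GC content and the largest rises, though Cdkn2c rose slightly more than Cdkn1c, and Rb1 had the lowest GC content. With an offset for GC content, the polysomal change was -0.01 ± 0.04 for Cdk4 and 0.02 ± 0.09 for Rb1, neither called (edgeR adjusted p = 0.8891 and 0.8595). With the same offset it was 0.15 for Ccnd1, 0.35 for Cdkn1c and 0.54 for Cdkn2c (edgeR adjusted p = 0.03024, 0.00119 and 0.0278). Rb1 and Cdk4 therefore have no polysomal direction that holds under the offset, while both inhibitors and Ccnd1 kept theirs at a smaller size. With the offset, 2805 of the 5777 tested genes were still called, so a kept call was common among listed genes and not particular to these members.

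Other scalings shifted all 5 members together. With RLE scaling, the median-ratio method, in place of TMM, the trimmed-mean method used throughout, the log2 changes were 0.59 for Ccnd1, 0.75 for Cdk4, 1.63 for Cdkn1c, 1.72 for Cdkn2c and -0.84 for Rb1, and with plain column sums they were 0.19, 0.35, 1.22, 1.31 and -1.23 in the same order of genes. The median over all listed genes was -0.35 with TMM, -0.11 with RLE and -0.51 with plain column sums. Rb1 lay below these medians and the other 4 members above them. A scaling shifts all listed genes by a like amount, so this order could hardly change and is no test of it. With the GC content offset, which acts gene by gene, the median was 0.04, against -0.01 for Cdk4 and 0.02 for Rb1.

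**Figure D4:**
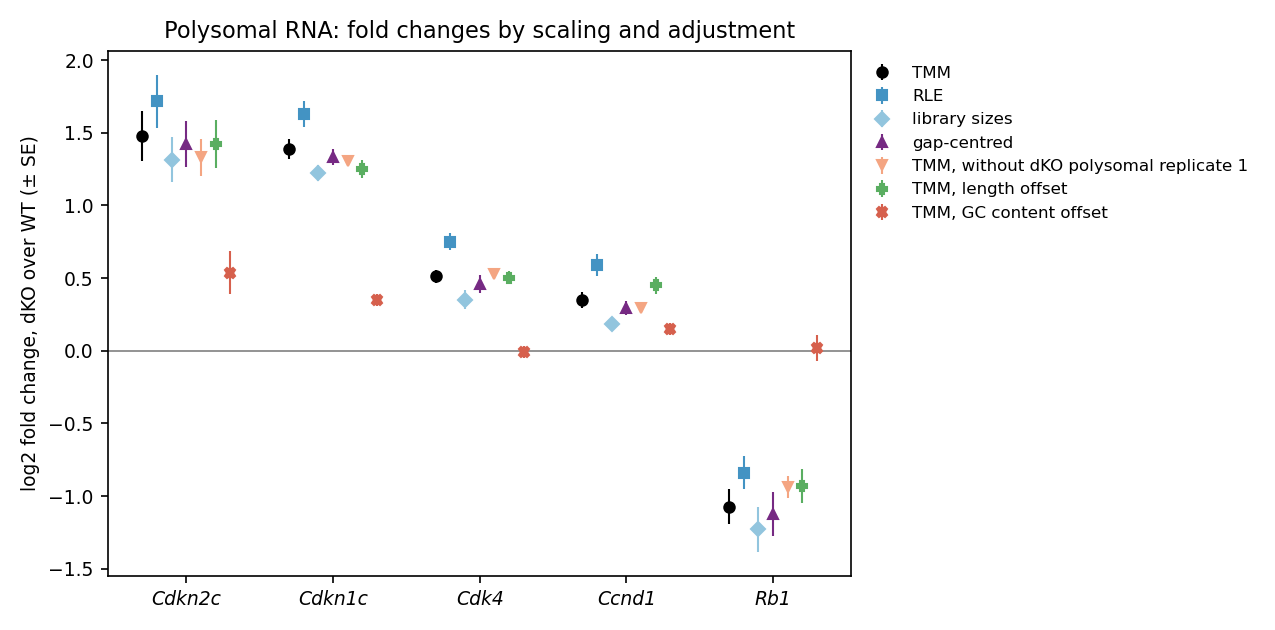
Log2 fold change of dKO over WT in polysomal RNA (± SE) for the 5 listed members under 7 settings, each with its own marker. The scalings move all genes by a like amount and keep Rb1 below 0, whereas the GC content offset brings Cdk4 to -0.01 and Rb1 to 0.02.

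Ratios within a library avoid the scaling but not the relation with GC content, which differs between these genes. With the GC content offset, the polysomal log2 changes lay closer together, at 0.15 for Ccnd1, 0.35 for Cdkn1c, 0.54 for Cdkn2c and 0.02 for Rb1. The ratios that follow are not adjusted for it. Rb1 counts were 6.047% and 8.077% of Ccnd1 counts in dKO polysomal RNA and 19.52% and 18.38% in WT polysomal RNA, against 22.17% and 22.14% in dKO and 17.56% and 18.39% in WT total RNA. In WT the values of both fractions overlapped, and in dKO the polysomal values were lower than those in total RNA. Cdkn1c counts were 119.3% and 114.5% of Ccnd1 counts in dKO polysomal RNA and 56.04% and 57.78% in WT, against 50.33% and 52.49% in dKO and 47.11% and 47.42% in WT total RNA. Cdkn1c thus had more reads than Ccnd1 only in the dKO polysomal libraries among the 8. Cdkn2c counts were 5.941% and 5.227% of Ccnd1 counts in dKO polysomal RNA and 2.782% and 2.32% in WT, against 4.067% and 3.584% in dKO and 2.147% and 2.578% in WT total RNA. Ccnd1 counts were 54.57% and 49.45% of Cdk4 counts in dKO polysomal RNA and 57.51% and 58.78% in WT, so both dKO values lay below both WT values, as they did in total RNA at 54.84% and 57.28% in dKO and 63.25% and 63.37% in WT.

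**Figure D5:**
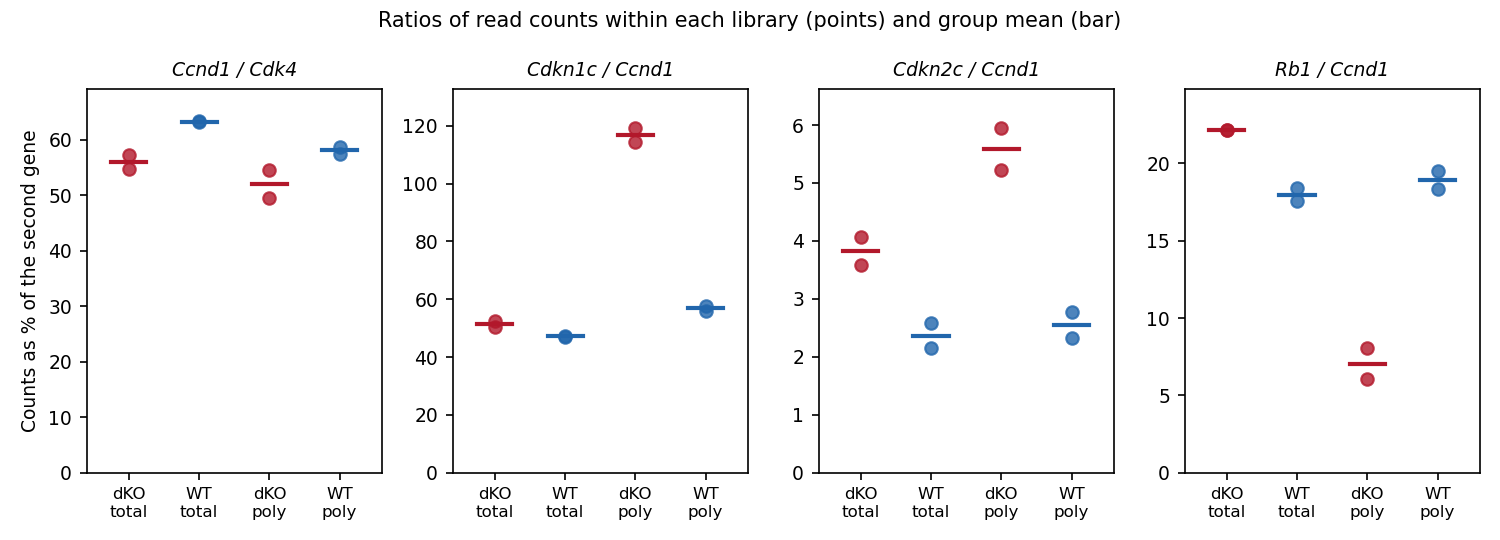
Read counts of Ccnd1 as a percentage of Cdk4, and of Cdkn1c, Cdkn2c and Rb1 as a percentage of Ccnd1, in each library (points) with the group mean (bars), in dKO and WT total RNA and in dKO and WT polysomal RNA (n = 2 each). In polysomal RNA, Cdkn1c reaches 119.3% and 114.5% of Ccnd1 in dKO against 56.04% and 57.78% in WT, and Rb1 lies at 6.047% and 8.077% in dKO against 19.52% and 18.38% in WT. The ratios are not adjusted for GC content.

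The polysomal fraction was also set against total RNA within each genotype, over the 5780 genes tested in both, with a fit on all 8 libraries. In WT, 12.1% of these genes were called by edgeR, 3.56% higher and 8.55% lower in polysomal RNA. Of the 5 members only Cdkn1c was called, at 0.21 ± 0.06 on the log2 scale (adjusted p = 0.03098), and that call was lost without any 1 of the 4 total RNA libraries or the 2 WT polysomal libraries, with adjusted p between 0.06457 and 0.2675. The other members had log2 differences of -0.05 ± 0.04 for Ccnd1, 0.07 ± 0.03 for Cdk4, 0.06 ± 0.16 for Cdkn2c and 0.02 ± 0.09 for Rb1, with edgeR adjusted p between 0.2242 and 0.9135. Cdk4 passed the threshold without dKO polysomal replicate 1 (edgeR adjusted p = 0.00197) or replicate 2 (0.004091). Plain column sums gave 46.71% of the called genes as higher, against 29.43% with TMM, and limma-voom, the GC offset and the length offset gave 39.45%, 48.67% and 43.62%.

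In dKO, 90% of the same genes were called by edgeR, 43.1% higher and 46.9% lower in polysomal RNA. Cdkn1c was higher in polysomal than in total RNA by 1.75 ± 0.06, Cdkn2c by 1.10 ± 0.16, Cdk4 by 0.67 ± 0.03 and Ccnd1 by 0.56 ± 0.04 on the log2 scale, and Rb1 differed by -1.08 ± 0.10 (edgeR adjusted p between 5.48e-09 and 6.71e-05). With the GC offset, Cdkn2c at 0.26 and Rb1 at -0.05 were no longer called (edgeR adjusted p = 0.1539 and 0.5947). The differences were then 0.82 for Cdkn1c, 0.19 for Cdk4 and 0.36 for Ccnd1, all still called, as were 3401 of the 5780 genes. The dKO polysomal libraries enter this comparison and the genotype comparison within polysomal RNA, so the values of both are not independent.

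The difference between these differences was tested as the interaction of genotype with fraction, where 89.5% of the 5780 genes were called by edgeR, 43.7% higher and 45.8% lower. A positive value means that the dKO over WT ratio was higher in polysomal than in total RNA. It was 1.53 ± 0.08 for Cdkn1c, 1.05 ± 0.22 for Cdkn2c, 0.62 ± 0.06 for Ccnd1, 0.60 ± 0.05 for Cdk4 and -1.10 ± 0.13 for Rb1 (edgeR adjusted p between 2.94e-07 and 0.001335). All 5 members were thus called, as nearly all listed genes were. With the GC offset, Cdk4 at 0.06, Cdkn2c at 0.09 and Rb1 at -0.05 were no longer called (edgeR adjusted p = 0.3654, 0.744 and 0.7363). Ccnd1 at 0.37 and Cdkn1c at 0.48 were still called, as were 2558 of the 5780 genes.

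Other genes of the Rb, E2F and Cdk list moved in both directions in polysomal RNA, where 26 of the 42 were listed, 8 higher and 17 lower in dKO, with a median of -0.54 against -0.35 over all listed genes. The following were chosen after their values were seen. E2f1 had a log2 change of 1.30 ± 0.11, Cdkn1a of 1.21 ± 0.17 and Cdkn2d of 1.05 ± 0.09, and each of these had also risen in total RNA. E2f5 had -1.25 ± 0.10 and Cdk1 -0.71 ± 0.09 (edgeR adjusted p of the 5 between 0.0001538 and 0.0009844). Under the GC offset these 5 kept their direction and their call at a smaller size, with 0.34 for E2f1, 0.57 for Cdkn1a, 0.29 for Cdkn2d, -0.79 for E2f5 and -0.41 for Cdk1. The remaining genes of the list were not examined under the offset, with which 2805 of the 5777 tested genes were called. The kept calls of these chosen genes therefore say nothing about the list. Markers of other cell types moved here as well, with 6 of 8 listed mesenchyme and somite markers higher and 2 lower and a sum of 1615 and 1331 CPM in dKO against 614.7 and 619 CPM in WT. Of 11 listed neural progenitor markers 8 were higher and 3 lower, of 10 neuron markers 1 was higher and 9 lower, and the 8 listed proliferation markers were all lower. All 5 listed erythroid markers were lower, with sums of 4885 and 4919 CPM in dKO against 8797 and 8669 CPM in WT. Of 4 endothelial markers 3 were higher and 1 lower, with sums of 251.7 and 214 CPM in dKO against 120.8 and 114.1 CPM in WT. Of 3 neural crest markers 2 were higher and 1 lower, and of 2 macrophage markers 1 was higher and 1 lower. Of all tested genes 47.2% were called higher and 52.5% lower in dKO, so a called marker says nothing beyond its being listed. The marker lists were not examined under the GC offset. The part of these markers in the polysomal values of Cdkn1c, Cdkn2c and Rb1 was not tested.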

How the data were processed

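Total and polysomal RNA-seq of 8 libraries was used, 2 per genotype and fraction. The authors deposited raw read counts (whole numbers by gene symbol) in 2 tables with a column per library, and 0 sample columns were left unused. Per the labels' protocols, libraries were strand-specific. The submitters' processing notes name TopHat, HTSeq and FastQC, and as builds mm9, mm10 and GRCm38. Not given in the sources used here are versions, roles, annotation, strand setting and the rule for listing genes in the polysomal table.

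Counts were tested with edgeR 4.0.16 in R 4.3.3 (robust quasi-likelihood F test, TMM scaling, filterByExpr) on every gene of a table, with Benjamini-Hochberg adjustment and a threshold of 0.05. Genotype comparisons used the 4 libraries of a fraction. Fraction comparisons and the interaction used all 8 libraries with 4 group means. CPM use TMM-scaled column sums, which in the polysomal table rest on listed genes. The biological coefficient of variation was 0.0504 in total RNA, 0.0898 in polysomal RNA and 0.0637 in the fit of all 8. Symbols matched GENCODE M21 (GRCm38) for 95.61% of the total and 96.45% of the polysomal table. The scripts were tested on simulated data.

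All members are reported in every comparison. From the pathway list, up to 6 rises and 6 falls in total RNA that passed the threshold and averaged 5 CPM or more were named, together with the E cyclins, Cdk2, Rbl1, Rbl2, Cdkn1a, Cdkn2d and all E2F genes whatever their values. From each marker list up to 3 genes by mean CPM could be named. Members and lists were chosen with earlier results of these data known. The match TACCTCA and the direction of genes by match were added after the data were seen. Alternatives were RLE, upper-quartile and unscaled column sums, a scaling centred on the empty interval, DESeq2 1.42.0, limma-voom (limma 3.58.1), other filters on low counts, the replicate number as a block, offsets for GC content and length (loess, span 0.5), all 8 libraries in 1 fit, the longest transcript for levels, and each library left out in turn.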

Additional observations from a re-analysis of the deposited data

Results flagged for a closer look

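For the 5 members listed in both fractions, the dKO over WT ratio differed between polysomal and total RNA by the edgeR interaction test. The log2 difference was 1.5324 for Cdkn1c (adjusted p = 2.94e-07), 1.0472 for Cdkn2c (0.001335), 0.6151 for Ccnd1 (5.7e-06), 0.6022 for Cdk4 (2.12e-06) and -1.1015 for Rb1 (2.7e-05). Of all genes tested in both fractions 89.5% were called, and with a GC content offset Cdk4, Cdkn2c and Rb1 were not. In groups of 2 libraries no single library can be tested for standing apart.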

How the results depend on the processing

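Of 15 alternatives for total RNA, DESeq2 called 2944 genes, 5 members and 3 rises in the pathway list, against 4502, 8 and 5. The fit on all 8 libraries called 1291 genes of the 5780 that it tests, 1 member of the 5 it holds (Ccnd1) and 2 pathway rises. With 1 library left out, 5 to 6 members and 2 to 5 pathway rises were called. In polysomal RNA the GC content offset called 2805 genes and 3 members, against 5760 and 5, and reversed Cdk4 to -0.0083 and Rb1 to 0.0219. For the fraction comparison in WT, limma-voom called 1194 genes against 700, the GC offset called 2 members against 1, and leaving out a library gave 188 to 2040 genes and 0 to 2 members. In that comparison uncalled values changed sign, Ccnd1 to 0.0034 with plain column sums and Rb1 to -0.0037 with the GC offset, and without a library Cdkn2c ranged from -0.0836 to 0.2075 and Rb1 from -0.0253 to 0.069, with -0.0767 and -0.0188 without WT polysomal replicate 1. In dKO the GC offset called 3401 genes and 3 members, against 5204 and 5, and in the interaction 2558 genes and 2 members, against 5172 and 5. Uncalled total RNA values also changed sign, E2f8 to 0.0048 with upper-quartile scaling, to 0.1688 without dKO replicate 2 and to 0.0952 without WT replicate 1, from a range of -0.2137 to 0.1688, and Rbl1 between -0.108 and 1e-04. With the longest transcript, 6 members kept their rank by level. The cause was not tested, except that the fit of all 8 libraries holds fewer genes. Where a library is left out, the lone library of its group is assumed to vary like the others.

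Same-numbered dKO and WT libraries had deviations correlated at 0.001 in total and 0.024 in polysomal RNA. Same-numbered total and polysomal libraries had 0.016 in dKO and 0.031 in WT. The replicate numbers thus showed no large shared effect, though such correlations cannot exclude that samples were paired. With the number as a replicate block, 4425 genes were called in total RNA, 5770 in polysomal RNA, 604 and 5182 between fractions in WT and dKO, and 5130 in the interaction, and among the members only Cdk4 in total RNA (-0.05, edgeR adjusted p = 0.06362) lost a call. Depth limits Cdk6 and Cdkn2c most, at 230 to 395 counts per total RNA library.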
